A study of Mus musculus with 8 samples.

Results

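De novo nucleotide synthesis was examined in the hearts of mice with a defect in Tafazzin, through the transcripts of 10 enzymes chosen by name. The list holds Ppat, Gart, Pfas, Paics, Adsl and Atic, which build the purine ring, Impdh2, which commits it to guanine nucleotides, and Cad, Dhodh and Umps, which build the pyrimidine ring. All 10 were found among the 55471 genes of the count files, and all 10 passed the low-count filter that left 15084 genes to test. RNA was sequenced from a small piece of heart of wild-type (WT) mice and of TAZG197V mice at 14 weeks of age, with 4 libraries of each genotype. TAZG197V mice carry a knock-in missense mutation, made with CRISPR/Cas9 in C57BL/6N zygotes, in Tafazzin, the mitochondrial acyltransferase that remodels cardiolipin. The founders were crossed to C57BL6/J, and neither genotype received a treatment. The study's text names hemizygous males as the mutant animals, although its breeding notes, as in the labels, also mention homozygous offspring. The labels number the libraries within each genotype without stating that each came from a separate animal, so p-values measure the spread between these libraries.

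Purine synthesis de novo starts from phosphoribosyl pyrophosphate (PRPP) and assembles the ring on it step by step, with glutamine, glycine, aspartate, bicarbonate and formyl groups from folate as building blocks, up to inosine monophosphate (IMP). IMP is then turned into AMP or GMP. Pyrimidine synthesis closes its ring first, oxidises it at the inner mitochondrial membrane and only then attaches PRPP to give UMP. Cardiac muscle is known to recover most of its adenine nucleotides by salvage, and de novo synthesis in heart is regarded as slow.

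Total counts ranged from 23055689 to 36301031 per library, and the 10 enzymes drew between 105 (Impdh2 in WT 4) and 6978 (Paics in TAZG197V 2) of them in a library. Levels are given as CPM, counts relative to library totals after TMM scaling, and fold changes come from a model with 2 surrogate variables. A gene is described as called, or as having risen or fallen, when its adjusted p was under 0.05, its log2 fold change was past 0.20 upwards or downwards and its mean scaled count was at least 50. Taz itself was lower in all 4 TAZG197V libraries, with 44.3 to 50.4 CPM compared with 58.7 to 63.8 CPM in WT (log2 fold change -0.37, SE 0.055, adjusted p = 0.00124, edgeR). WT 4 stood apart through red cell transcripts, whose 6 markers summed to 55072 CPM there and to at most 1065 CPM in any other library, and through T and B lymphocyte markers, with a sum of 105 CPM there and 8.69 to 16.5 CPM in the other libraries. WT 2 stood apart through atrial transcripts, with Myl7 at 385 CPM and at most 26.96 CPM elsewhere. It also held the highest adipocyte markers, with a sum of 21.0 CPM there and at most 3.56 CPM elsewhere. Brain markers were highest in library number 4 of both genotypes, with sums of 182 CPM in WT 4 and 303 CPM in TAZG197V 4 compared with 43.9 to 88.0 CPM in the other libraries.

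Of the 10 enzymes, 6 rose in TAZG197V hearts and 0 fell, by edgeR's quasi-likelihood test, and DESeq2 gave 0 lower calls as well. At an unadjusted p under 0.05, 1 was lower (Dhodh). Among all tested genes, 18.5% were called higher, 15.1% lower and 33.5% in either direction. The risen transcripts were Atic, Impdh2, Adsl, Gart, Paics and Umps, by 1.21-fold (Paics) to 1.91-fold (Atic). Ppat, Cad, Pfas and Dhodh did not pass the test. In the same 6 genes every TAZG197V library lay above every WT library, a separation found in this direction in 19.3% and in either direction in 33.2% of all tested genes, and in the other 4 the genotypes overlapped. The median log2 fold change of the 10 was 0.28, compared with -0.013 over all tested genes. The summed level of the 10 was 370 to 382 CPM in WT and 449 to 489 CPM in TAZG197V. Without WT 2 and without WT 4 the count of called enzymes was 6 in each case, beside 2453 of 15136 and 2671 of 15400 tested genes called higher. Without both number 4 libraries it was 7, beside 2833 of 15232.

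**Figure D1:**
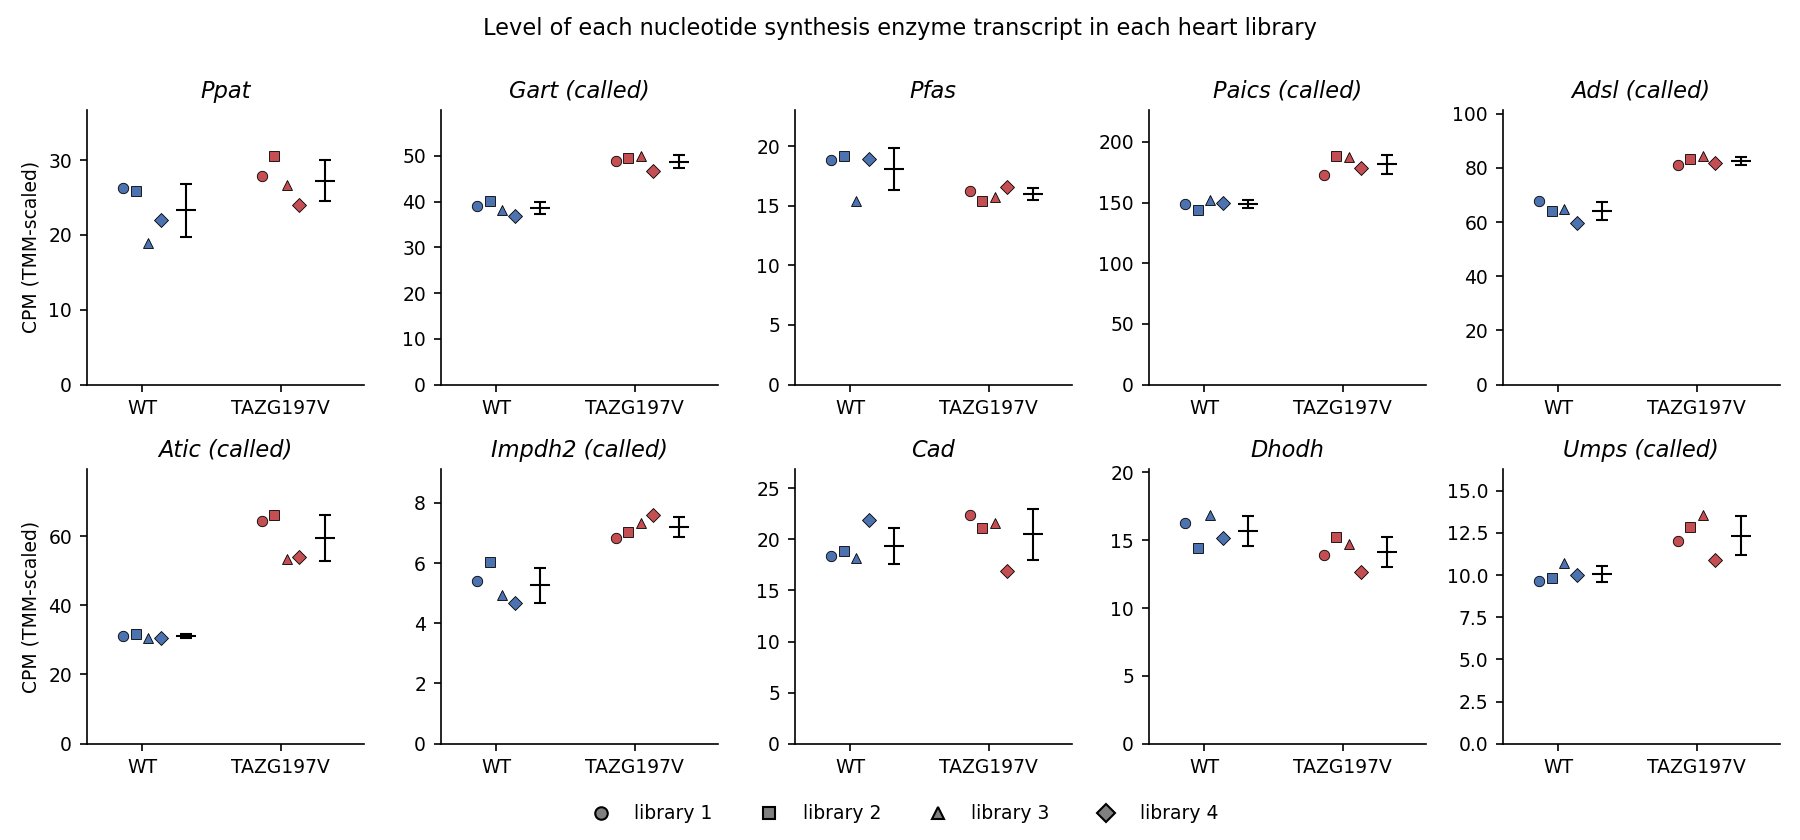
Level of each enzyme transcript in CPM after TMM scaling (vertical axes, each from 0) in the 4 WT (blue) and 4 TAZG197V (red) heart libraries, with library numbers given by marker shape and the mean ± SD beside each group. Gart, Paics, Adsl, Atic, Impdh2 and Umps separate without overlap, whereas Ppat, Pfas, Cad and Dhodh overlap between genotypes.

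The first enzyme of the purine pathway, Ppat, transfers the amide nitrogen of glutamine onto PRPP and is the committed step. Its transcript stood at 26.3, 25.9, 18.9 and 22.0 CPM in WT 1 to WT 4 and at 27.9, 30.5, 26.7 and 24.0 CPM in TAZG197V 1 to 4. The mutant mean was higher, but TAZG197V 4 lay below WT 1 and WT 2. The log2 fold change was 0.26 (SE 0.109, 95% interval 0.0074 to 0.51, adjusted p = 0.0956 by edgeR's quasi-likelihood test with Benjamini-Hochberg adjustment), which did not pass. Ppat passed with sequencing lane in place of the surrogate variables (0.24, adjusted p = 0.0457, edgeR) and with library totals in place of TMM (0.34, adjusted p = 0.0452, edgeR).

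Gart is a single protein that carries out the glycinamide ribotide synthetase, formyltransferase and cyclisation steps. It stood at 39.1, 40.0, 38.1 and 37.0 CPM in WT and at 48.8, 49.6, 50.0 and 46.7 CPM in TAZG197V. The lowest mutant library was above the highest WT library, and the rise was 1.27-fold (log2 0.35, SE 0.051, adjusted p = 0.00117, edgeR). By the annotation, 19.7% of the exon bases of Gart also lie in exons of Gm15964, and the strand setting of the counting is not given in the sources used here.

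Pfas, which adds a further glutamine nitrogen to the formylated intermediate, gave 18.8, 19.2, 15.4 and 18.9 CPM in WT and 16.2, 15.4, 15.7 and 16.6 CPM in TAZG197V. The mutant libraries lay below WT 1, WT 2 and WT 4, and WT 3 was the low exception within the range of the mutant libraries. The log2 fold change was -0.16 (SE 0.079, adjusted p = 0.143, edgeR) and did not pass. Without WT 3 it was -0.24 and Pfas was called lower (adjusted p = 0.0398, edgeR), so the call for this gene turned on 1 library.

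Paics combines the carboxylase and the aspartate-adding synthetase that follow ring closure of the imidazole. It was the most abundant of the 10 per length of transcript, and gave 149, 144, 152 and 149 CPM in WT and 172, 188, 188 and 178 CPM in TAZG197V. The genotypes did not overlap, and Paics rose 1.21-fold (log2 0.28, SE 0.054, adjusted p = 0.00437, edgeR). Adsl, the lyase that releases fumarate in this pathway and again on the way from IMP to AMP, gave 67.7, 64.1, 65.0 and 59.7 CPM in WT and 81.1, 83.3, 84.4 and 81.7 CPM in TAZG197V. Its 4 mutant values spanned a narrow range above the highest WT value, and it rose 1.29-fold (log2 0.37, SE 0.055, adjusted p = 0.00124, edgeR).

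Ppat and Paics lie head to head on chromosome 5. Their RefSeq starts in build GRCm38.p6 are 76951578 on the minus strand and 76951302 on the plus strand, 276 bases apart with overlapping exons, and 6.15% of the exon bases of Ppat and 8.67% of those of Paics lie in the partner gene. The log2 ratio of Ppat to Paics averaged -2.66 ± 0.25 over the 4 WT and -2.72 ± 0.13 over the 4 TAZG197V libraries (SD), a difference of -0.06 that was smaller than the spread in WT (exact permutation test, two-sided, p = 0.686).

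Atic closes the purine ring: it adds the second formyl group from folate and forms IMP. It showed the largest change of the 10, from 31.2, 31.7, 30.6 and 30.6 CPM in WT to 64.3, 66.0, 53.4 and 53.9 CPM in TAZG197V. The WT libraries lay within a narrow range, and the mutant libraries split into a higher pair, numbers 1 and 2, and a lower pair, numbers 3 and 4. Numbers 1 and 2 were sequenced in lane 7 and numbers 3 and 4 in lane 8, in both genotypes. The rise was 1.91-fold (95% interval 1.68 to 2.18, log2 0.94, SE 0.082, adjusted p = 0.0001, edgeR), and the log2 fold change was 0.89 to 1.01 over 17 alternative fits, with lane as a covariate among them.

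The Atic gene occupies chromosome 1 from 71557150 to 71579631 on the plus strand in the GENCODE annotation of GRCm38. Its upstream sequence is shown because the gene moved most and because an E-box, the palindrome CACGTG that basic helix-loop-helix factors recognise, lies at the annotated start. By the RefSeq start the E-box is upstream of the gene, whereas most of it lies inside the gene by the GENCODE start. The window holds the 250 bases before the RefSeq start at 71557156, read from RefSeq in build GRCm38.p6 at chr1:71556906-71557155 on the plus strand, with the E-box in capitals at 7 to 2 bases before the start.
Atic: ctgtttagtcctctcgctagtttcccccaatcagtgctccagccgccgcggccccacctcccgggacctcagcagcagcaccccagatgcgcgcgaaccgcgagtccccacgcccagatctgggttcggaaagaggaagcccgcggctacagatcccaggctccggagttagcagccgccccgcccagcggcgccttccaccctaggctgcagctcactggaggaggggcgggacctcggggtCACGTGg

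The same letters occurred in the upstream windows of Paics, at 203 to 198 bases before its start, and of Impdh2, at 110 to 105 bases before its start. The Paics match lies inside the transcribed part of Ppat, and the Impdh2 match lies downstream of the GENCODE gene start, so only 12 bases on either side of each E-box are shown, both from the plus strand of GRCm38.p6 at chr5:76951087-76951116 and chr9:108560314-108560343.
Paics: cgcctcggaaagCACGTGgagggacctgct
Impdh2: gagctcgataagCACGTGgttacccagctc
Windows of this kind were at hand for 8 of the 10 enzymes, without Pfas and Dhodh. The E-box was present in 3 of the 8, and in 6.02% of 32851 windows of the same length over all genes. The share of G and C was 49.6% in the Umps window and 58.8% (Cad) to 68.8% (Atic) in the others. Its median over all windows was 52.4%, so these shares do not compare windows of like composition, and the part of composition was not tested. The letters TGATGNAA, the core of the element shared by ATF4 and C/EBP factors, were sought on both strands and found in 0 of the 8 windows and in 3.45% of all windows. The NRF1 motif, the letters GCGCA followed by their reverse complement, was found in 0 of 8 and in 0.782% of all windows. No match overlapped another. A match or its absence describes these letters in this window alone.

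The 5 genes whose pattern over the 8 libraries was nearest to that of Atic, by Euclidean distance in log2 CPM relative to the WT mean among 12355 genes, were Abhd6, Ascc2, Nop16, Eef1e1 and Thop1. Their distances ranged from 0.118 (Abhd6) to 0.181 (Thop1). Abhd6, a monoacylglycerol lipase, had a log2 fold change of 0.99 (SE 0.096). Ascc2, a subunit of the activating signal cointegrator complex, had 0.97 (SE 0.075), Nop16, a nucleolar protein, 0.90 (SE 0.080), Eef1e1, an accessory protein of the aminoacyl-tRNA synthetase complex, 0.90 (SE 0.082), and Thop1, a peptidase, 0.87 (SE 0.083).

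Impdh2 oxidises IMP, the rate-limiting step towards GMP. It drew the fewest counts of the 10, with 5.41, 6.02, 4.93 and 4.69 CPM in WT and 6.83, 7.02, 7.33 and 7.59 CPM in TAZG197V, which rest on 105 to 260 counts per library. All mutant values were above all WT values, and the rise was 1.41-fold (95% interval 1.21 to 1.64, log2 0.49, SE 0.097, adjusted p = 0.00498, edgeR). Of the 50-base stretches of its transcripts, 39.3% also occur in the pseudogene Impdh2-ps, which itself drew 3 to 17 counts per library, so the count of Impdh2 is uncertain to the extent that such reads were dropped or moved. The isozyme Impdh1 rose as well, from 18.5 to 24.5 CPM in WT to 26.1 to 30.04 CPM in TAZG197V (log2 0.38, SE 0.064, adjusted p = 0.00256, edgeR). The log2 ratio of Impdh2 to Impdh1 averaged -1.92 ± 0.29 over the 4 WT and -1.90 ± 0.13 over the 4 TAZG197V libraries (SD), which did not differ beyond the spread (exact permutation test, two-sided, p = 0.943).

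**Figure D2:**
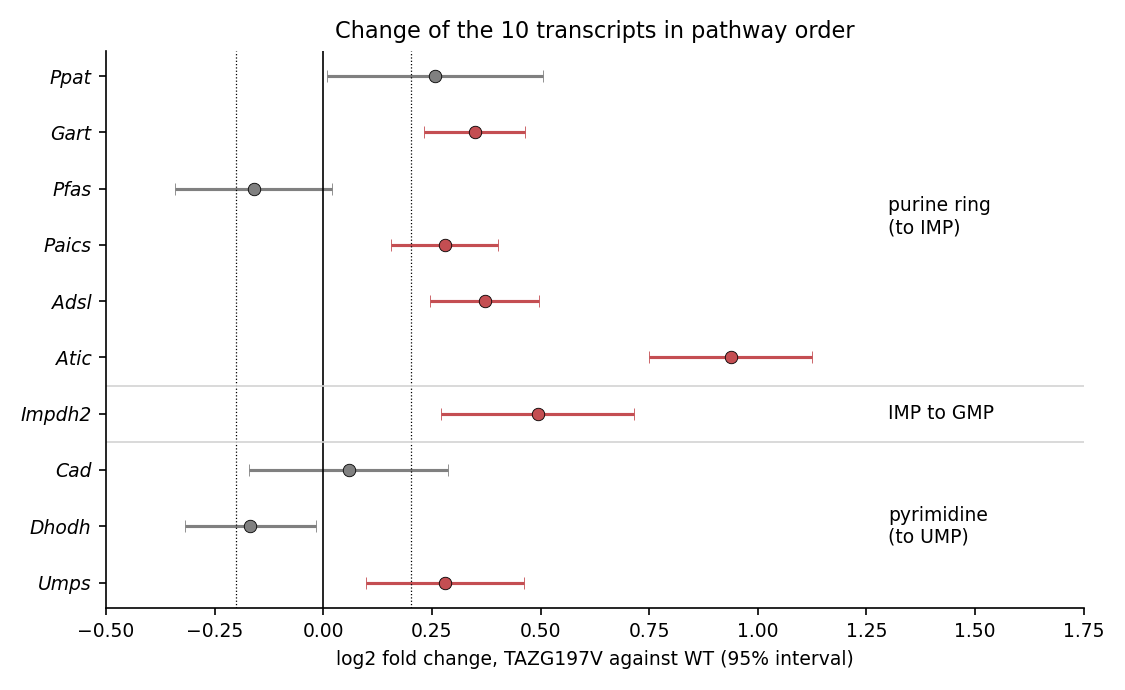
Fitted log2 fold change of each enzyme in TAZG197V against WT hearts (horizontal axis) with its 95% interval, in pathway order from top to bottom. Red points were called and grey points were not, and the dotted lines mark the fold change cut-off, 0.20 on the log2 scale, in either direction. Atic lies apart at 0.94, the other called genes lie between 0.28 and 0.49, and the lowest are Dhodh at -0.17 and Pfas at -0.16.

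Of the 3 pyrimidine enzymes, 1 rose. Cad, the large cytosolic protein that carries out the first 3 steps of pyrimidine synthesis, gave 18.3, 18.9, 18.2 and 21.9 CPM in WT and 22.4, 21.1, 21.6 and 16.9 CPM in TAZG197V. The number 4 libraries went against the others, WT 4 being high and TAZG197V 4 low. The log2 fold change was 0.06 (SE 0.0998, 95% interval -0.17 to 0.29, adjusted p = 0.669, edgeR). Without TAZG197V 4 it was 0.22 and Cad was called (adjusted p = 0.0294, edgeR), without both number 4 libraries it was 0.23 (adjusted p = 0.0307, edgeR), and without WT 3 it was -0.004 (adjusted p = 0.979, edgeR). Brain markers were high in both number 4 libraries, and red cell and lymphocyte markers in WT 4 alone. The part of these in the Cad values was not tested.

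Dhodh, the dihydroorotate dehydrogenase that feeds electrons into the respiratory chain at the inner mitochondrial membrane, gave 16.2, 14.4, 16.9 and 15.2 CPM in WT and 13.9, 15.2, 14.7 and 12.7 CPM in TAZG197V. The mutant values were lower on average but overlapped WT, and the log2 fold change of -0.17 did not pass (SE 0.066, 95% interval -0.32 to -0.017, adjusted p = 0.076, edgeR). It was called in 0 of 17 alternative fits, with adjusted p of 0.059 to 0.439. Umps, which attaches orotate to PRPP and decarboxylates it to UMP, gave 9.64, 9.84, 10.7 and 10.0 CPM in WT and 12.0, 12.8, 13.6 and 10.9 CPM in TAZG197V. The lowest mutant value was just above the highest WT value, and the rise was 1.21-fold (log2 0.28, SE 0.080, adjusted p = 0.0243, edgeR). This was the least stable call. It was lost with DESeq2 (adjusted p = 0.0978), without WT 1 (0.0872), without TAZG197V 1 (0.0521), without TAZG197V 2 (0.0816) and without TAZG197V 3 (0.0735), while the direction stayed the same.

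Gart, Paics, Adsl, Atic and Impdh2 were called in each of the 17 alternative fits, which changed the covariates, the tool, the scaling, the filter or the libraries. Each lane held 2 libraries of each genotype. With lane as a covariate 7 enzymes were called, beside 2436 of 15084 tested genes called higher. Omission of 1 library at a time gave 5 to 7 called enzymes, beside 2125 to 2679 of all tested genes called higher. At a fold change beyond 1.5, Atic alone of the 10 remained, beside 998 of 15084 tested genes higher and 1843 in either direction. With library totals in place of TMM scaling, 3511 of 5117 called genes were higher in TAZG197V, compared with 2785 of 5060 with TMM, and 7 of the 10 enzymes were called higher.

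**Figure D3:**
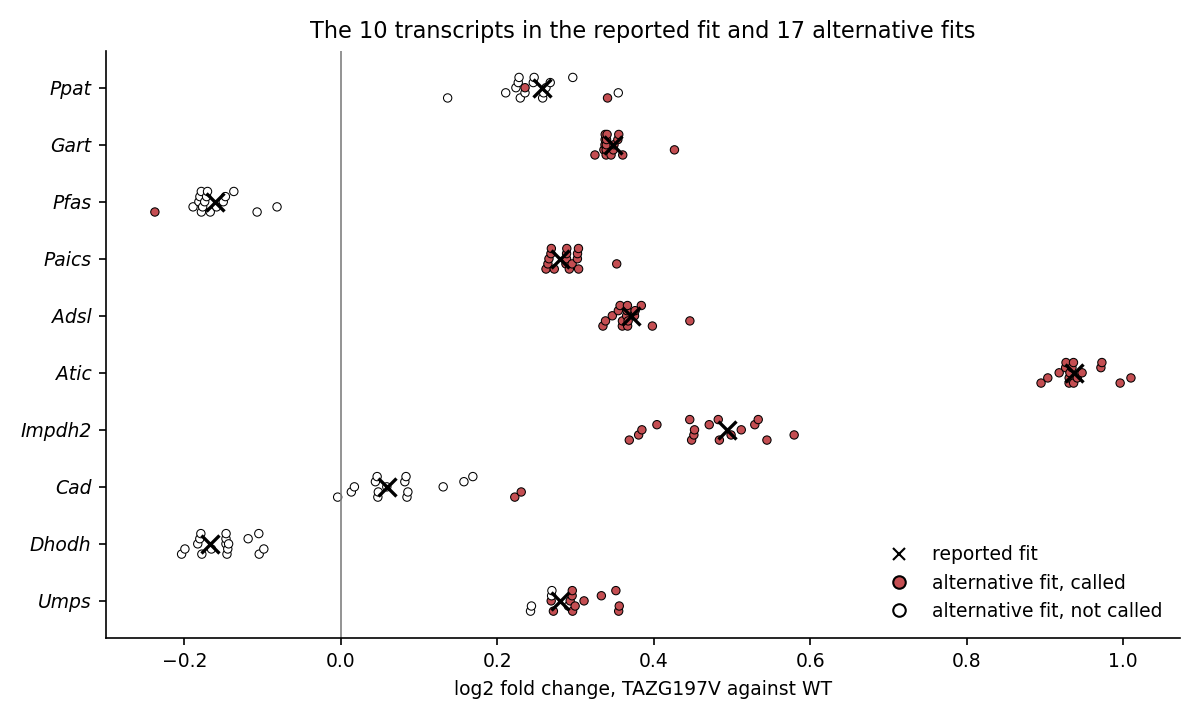
Log2 fold change of each enzyme (horizontal axis) in the reported fit (cross) and in 17 alternative fits (circles), filled where the gene was called. The fills are complete for Gart, Paics, Adsl, Atic and Impdh2, number 12 for Umps, and are few for Ppat, Cad and Pfas, the last of which was called in the lower direction.

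Per kilobase of exon, Paics was the most abundant in WT, at 47.4 ± 1.1 CPM per kilobase, followed by Adsl at 11.4 ± 0.59, Gart at 7.49 ± 0.26, Ppat at 5.26 ± 0.79, Atic at 3.89 ± 0.06 and Umps at 2.88 ± 0.13 (SD, n = 4). Neighbours in this order down to Dhodh, at 2.48 ± 0.17, did not overlap between libraries. Dhodh and Cad, Cad and Pfas, and Pfas and Impdh2, the lowest at 1.71 ± 0.19, overlapped as neighbours. In TAZG197V, Atic stood at 7.44 ± 0.84 CPM per kilobase, above Ppat at 6.17 ± 0.62, with overlapping ranges. Impdh2, at 2.34 ± 0.11, was no longer the lowest, which was Pfas at 2.02 ± 0.07.

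Some marker genes of cardiac cell types were called as well, to be read beside the 15.1% of all tested genes called lower. Of 10 cardiomyocyte markers 5 fell, and their sum was 66849 to 77321 CPM in WT and 56740 to 63059 CPM in TAZG197V. Fibroblast markers fell in 4 of 7 cases, with sums of 1146 to 1858 CPM in WT and 795 to 1152 CPM in TAZG197V, and endothelial markers in 2 of 6, with sums of 737 to 1010 CPM and 574 to 786 CPM. The sums of these latter lists overlapped between the genotypes, whereas the cardiomyocyte sums did not. The highest fibroblast sum, 1858 CPM, was that of WT 2, and the other WT libraries lay at 1146 to 1224 CPM. Of 6 macrophage markers, 0 were called by edgeR and 1 (C1qa) had an unadjusted p under 0.05. The defining cardiomyocyte genes Myh6 and Tnnt2 stood at 18324 CPM or more and 6123 CPM or more in every library. In pieces of whole heart, fewer cells of a type and less RNA per cell cannot be told apart, and the part of these marker levels in the enzyme levels was not tested. Of 11 tested proliferation markers, 1 rose (Mcm7, log2 0.59) and 1 fell (Mcm2, log2 -0.58), both named after their values were seen, and 9 were not called.

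The genes around the pathway were taken as 11 lists by textbook role, with 89 genes, of which 86 were tested. In these lists 31 of 86 genes rose and 16 of 86 fell, beside 18.5% higher and 15.1% lower over all tested genes, and the median log2 fold change was 0.11. The count of fallen genes was 10 without TAZG197V 4. PRPP, the common substrate of both pathways, is made by the PRPP synthetases. Prps1 rose from 22.6 to 25.8 CPM in WT to 28.2 to 34.9 CPM in TAZG197V (log2 0.42, SE 0.084, adjusted p = 0.00517, edgeR). Prps2 rose too (log2 0.44, SE 0.093, adjusted p = 0.00684, edgeR), although WT 4, at 26.4 CPM, overlapped the lowest mutant library at 26.3 CPM. Prpsap1, an associated regulatory subunit, rose from 16.9 to 18.8 CPM to 22.9 to 26.01 CPM (log2 0.46, SE 0.061, adjusted p = 0.000706, edgeR). Prpsap2 (log2 0.16) and Prps1l3 (log2 0.03) were not called.

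**Figure D4:**
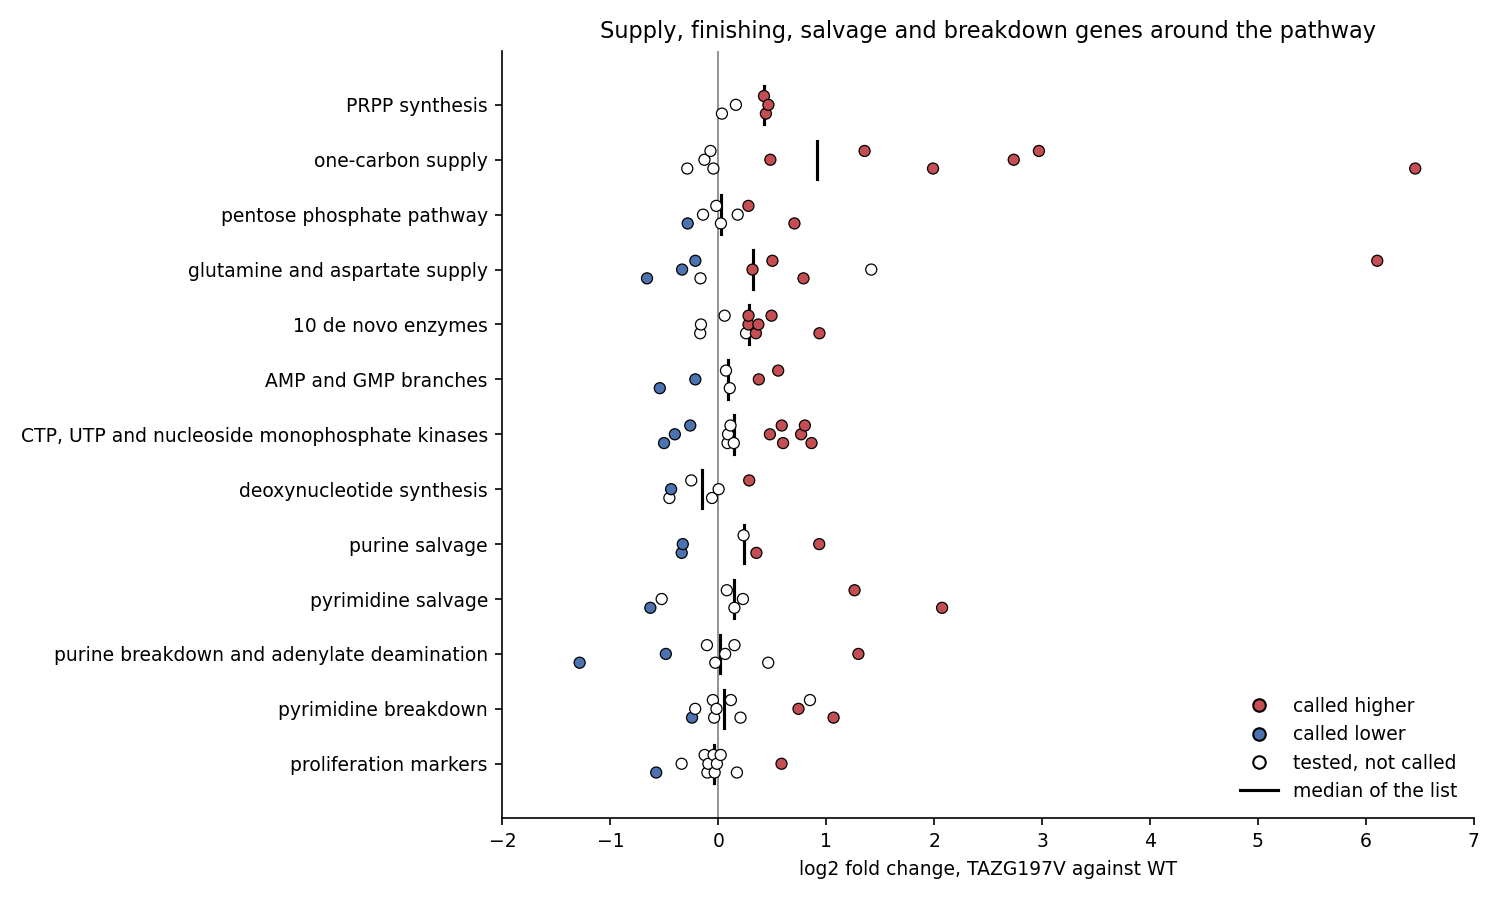
Log2 fold change in TAZG197V against WT hearts (horizontal axis) of each tested gene in the 10 enzymes, in 11 lists of surrounding genes and in the proliferation markers, 1 row per list. Red was called higher, blue called lower, open not called, and the bar is the median of the list. Mthfd2 at 6.46 and Asns at 6.11 lie far to the right, and the one-carbon list has the highest median, at 0.92.

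The one-carbon list holds genes that handle the folate-bound formyl groups Gart and Atic draw on, and not all of them supply such groups. Its median was the highest, with 6 of 10 genes higher and 0 lower, in edgeR and in DESeq2, and 0 lower at an unadjusted p under 0.05. Mthfd2, the mitochondrial methylenetetrahydrofolate dehydrogenase and cyclohydrolase, gave 3.42, 3.30, 5.51 and 3.84 CPM in WT and 381, 378, 347 and 341 CPM in TAZG197V. The genotypes were separated by more than an order of magnitude (log2 6.46, SE 0.146, edgeR). Shmt2, the mitochondrial serine hydroxymethyltransferase, rose from 36.5 to 42.4 CPM to 88.0 to 118 CPM (log2 1.36, SE 0.080, edgeR). Its cytosolic counterpart Shmt1 rose with a log2 fold change of 1.99 (SE 0.115), and Aldh1l2, a mitochondrial 10-formyltetrahydrofolate dehydrogenase, with 2.97 (SE 0.198). Mthfd1l, which releases formate from mitochondria, rose from 0.544 to 1.88 CPM to 7.66 to 9.74 CPM (log2 2.74, SE 0.296). Mthfd1, the cytosolic trifunctional enzyme that charges formate onto folate for purine synthesis, had the smallest fold change of the 6 and rose from 31.4 to 32.6 CPM to 40.9 to 51.4 CPM (log2 0.48, SE 0.072, adjusted p = 0.00127, edgeR). Mthfd2l (log2 -0.07), Aldh1l1 (log2 -0.13) and Mthfs (log2 -0.05) were not called.

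Beyond IMP, the AMP and GMP branches were mixed, with 2 genes higher and 2 lower of 6. Gmpr, which returns GMP to IMP, fell from 88.9 to 124 CPM to 67.5 to 79.7 CPM (log2 -0.54, SE 0.086, adjusted p = 0.00181, edgeR), while its paralogue Gmpr2 rose (log2 0.55, SE 0.112, adjusted p = 0.00551, edgeR). Of the exon bases of Gmpr2, 43.9% also lie in Nedd8 or Tinf2, and 16.1% of those of Gmpr lie in Atxn1, so both counts are uncertain. Adssl1, the muscle adenylosuccinate synthetase, was called lower (log2 -0.21, SE 0.064, adjusted p = 0.0309, edgeR) but passed in only 6 of 17 alternative fits, with adjusted p of 0.0222 to 0.106. It was lost without any 1 of WT 1, WT 3, TAZG197V 1, TAZG197V 3 or TAZG197V 4, with adjusted p of 0.0626, 0.106, 0.0784, 0.0555 and 0.0793. With the replicate number as a block it was lost as well (adjusted p = 0.0973, edgeR). Adss, the other isozyme, was not called (log2 0.07), nor was GMP synthetase Gmps (log2 0.11), although the 4 mutant values of Gmps, 53.5 to 57.0 CPM, lay above the 4 WT values, 48.5 to 52.2 CPM.

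Of 9 genes that supply glutamine and aspartate, 4 rose and 3 fell. Asns, asparagine synthetase, which consumes both amino acids, rose from 2.23 to 4.74 CPM to 208 to 256 CPM (log2 6.11, SE 0.173). Got1, the cytosolic aspartate aminotransferase, had a log2 fold change of 0.79 (SE 0.069) and Glul, glutamine synthetase, 0.50 (SE 0.092). Slc1a5, a glutamine transporter, fell from 23.2 to 30.8 CPM to 13.9 to 17.5 CPM (log2 -0.66, SE 0.096, adjusted p = 0.00118, edgeR). Gls2, a glutaminase named here after its values were seen, had a log2 fold change of 1.42 (SE 0.202, adjusted p = 0.00105, edgeR) but stayed under the mean count of 50 and was not called. In the pentose phosphate pathway, which provides ribose 5-phosphate, Pgls (log2 0.71) and Pgd (log2 0.28) rose and Rpia was called lower (log2 -0.28, adjusted p = 0.0268, edgeR) among 7 genes. Of the exon bases of Pgls, 20.6% also lie in Fam129c, so its count is uncertain. Rpia was called in only 4 of 17 alternative fits, being lost with DESeq2 (0.0629), with lane (0.0737), with no surrogate variables (0.0653) or 1 (0.0531), with library totals (0.0595), with no low-count filter (0.13) and without both number 4 libraries (0.129). The call of Rpia was also lost with the replicate number as a block (0.081). It was lost as well without any 1 of WT 1, WT 3, WT 4, TAZG197V 2 or TAZG197V 4, with adjusted p of 0.0603, 0.0553, 0.0797, 0.0617 and 0.137.

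Further along, CTP synthetase Ctps, which aminates UTP, rose from 37.5 to 48.9 CPM to 67.6 to 87.0 CPM (log2 0.86, SE 0.055, edgeR). Its isozyme Ctps2 was not called (log2 0.09, SE 0.082). The log2 ratio of Ctps to Ctps2 averaged 2.07 ± 0.27 over the 4 WT and 2.84 ± 0.26 over the 4 TAZG197V libraries (SD), a difference of 0.77 with every mutant library above every WT library. The exact permutation test gave p = 0.0286, two-sided, which is the smallest that 4 against 4 allows, and 0.171 after Benjamini-Hochberg adjustment over 6 ratios, which did not pass. The other 5 ratios gave unadjusted p of 0.2 to 0.943 by the same exact test, and Prps1 to Prps2 differed by -0.05, Adss to Adssl1 by 0.24 and Rrm2 to Rrm2b by -0.30. Of the 13 tested genes in the list of CTP, UTP and nucleoside monophosphate kinases, 6 rose and 3 fell. The nucleoside diphosphate kinases Nme1 (log2 0.80) and Nme4 (log2 0.77) were among the genes that rose. The 3 that fell, named after their values were seen, were the kinases Ak1 (log2 -0.40, SE 0.078), Ak3 (log2 -0.26, SE 0.0503) and Ak4 (log2 -0.50, SE 0.086). Without TAZG197V 4, Ak3 (adjusted p = 0.0525, edgeR) and Ak4 (0.0885) lost their calls. Ak4 also lost its call without both number 4 libraries (0.0622) and with the replicate number as a block (0.0764). With library totals the fold change of Ak3 (log2 -0.19) fell short of the cut-off. Of the exon bases of Ak3, 22.9% also lie in 1700018L02Rik or Cdc37l1, so its count is uncertain.

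**Figure D5:**
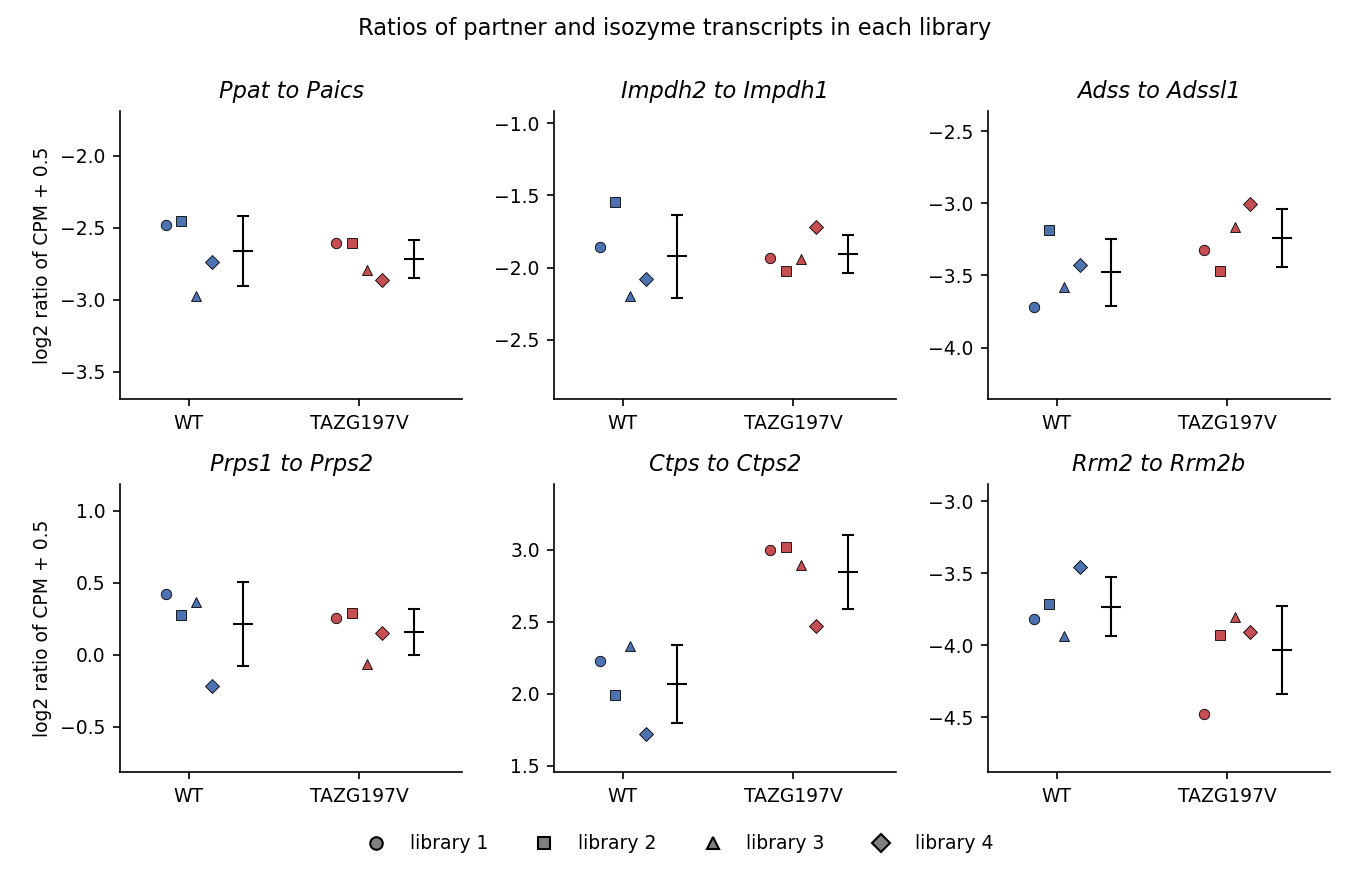
Log2 ratio of CPM + 0.5 for 6 pairs of neighbouring or isozyme transcripts in each library (vertical axes, with different ranges), with WT in blue, TAZG197V in red, library number by marker shape and the mean ± SD beside each group. Only for Ctps to Ctps2 does the lowest mutant library, at 2.47, lie above the highest WT library, at 2.33.

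Salvage and breakdown genes were mixed. Of 5 purine salvage genes, Aprt, adenine phosphoribosyltransferase, rose from 10.5 to 12.4 CPM to 19.99 to 24.4 CPM (log2 0.94, SE 0.086, adjusted p = 0.00013, edgeR), and Hprt, the hypoxanthine and guanine counterpart, rose by 0.35 (SE 0.057). Adenosine kinase Adk (log2 -0.33) and deoxyguanosine kinase Dguok (log2 -0.34) fell. The call of Adk was lost without TAZG197V 2 (adjusted p = 0.0624, edgeR). Among 7 pyrimidine salvage genes, dCMP deaminase Dctd (log2 2.07) and uridine-cytidine kinase Uck2 (log2 1.26, 37.0 to 51.4 CPM in WT and 78.9 to 120 CPM in TAZG197V) rose, and thymidine kinase Tk1 (log2 -0.63) fell. Of 8 tested purine breakdown genes, the ecto-5'-nucleotidase Nt5e rose (log2 1.298, SE 0.076) and the AMP deaminase Ampd3 fell (log2 -0.49, SE 0.075). Guanine deaminase Gda was called lower (log2 -1.28, SE 0.338, adjusted p = 0.018, edgeR), but WT 4 held 122 CPM compared with 14.7 to 27.1 CPM in the other WT libraries. Without WT 4 its log2 fold change was -0.45 (adjusted p = 0.148, edgeR), and the call was also lost without WT 2 (0.0605), TAZG197V 1 (0.0801) or TAZG197V 2 (0.0655). It was lost as well with lane (0.0932), with the replicate number as a block (log2 -1.03, 0.054) and with no surrogate variables (0.116) or 1 (0.0794). Gda was called in 9 of 17 alternative fits. WT 4 also held the highest red cell and lymphocyte markers, and their part in this value was not tested.

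Of 10 pyrimidine breakdown genes, uridine phosphorylase Upp1 (log2 1.07, SE 0.143) and the nucleotidase Nt5c (log2 0.74, SE 0.1601) rose. The nucleotidase Nt5c3 was called lower (log2 -0.24, adjusted p = 0.0266, edgeR), but in only 7 of 17 alternative fits. The call was lost with no surrogate variables (0.0622), with lane (0.0746), with library totals (0.0819), with no low-count filter (0.0801) and without both number 4 libraries (0.117). It was also lost without any 1 of WT 1, WT 4, TAZG197V 1, TAZG197V 2 or TAZG197V 4, with adjusted p of 0.0854, 0.111, 0.0585, 0.08 and 0.105. Among 6 genes of deoxynucleotide synthesis, Dut, which cleaves dUTP, fell from 18.1 to 19.2 CPM to 12.9 to 14.3 CPM (log2 -0.44, SE 0.069, adjusted p = 0.00171, edgeR). The large subunit of ribonucleotide reductase, Rrm1, was called higher (log2 0.29, adjusted p = 0.0332, edgeR), called in 12 of 17 alternative fits and lost with DESeq2 (adjusted p = 0.0531) and without WT 1, WT 3, TAZG197V 2 or TAZG197V 3 (adjusted p of 0.0753, 0.0865, 0.0846 and 0.0562). Its small subunits Rrm2 (log2 -0.45) and Rrm2b (log2 -0.06) were not called.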

How the data were processed

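Going by the methods and the labels, the authors sequenced 50-base single-end reads, demultiplexed them with bcl2fastq 2.20.0, aligned them to mm10 with STAR 2.7.3a and counted reads over exons with featureCounts of Subread 2.0.0. The deposited values are raw counts per Ensembl gene, 1 column per library. Annotation release, strand setting and treatment of reads with several alignments are not given in the sources used here. The 92 rows of spike-ins summed to 0 counts and were left out. Symbols and gene positions came from GENCODE M21 (55230 of 55471 genes matched), upstream windows from RefSeq GRCm38.p6 (8 of 10 enzymes matched).

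Genotype was tested in R 4.3.3 by edgeR 4.0.16 with its quasi-likelihood F-test, two-sided, on all 8 libraries after filterByExpr and TMM, with 2 surrogate variables from svaseq (sva 3.50.0, seed 1) and Benjamini-Hochberg adjustment over 15084 genes. The standard error is the log2 fold change divided by the square root of F. Intervals are at 95%. The 6 ratios, with a pseudocount of 0.5 CPM, were tested by exact permutation over libraries in Python 3.11.15 with scipy 1.17.1, and figures were drawn with matplotlib 3.10.9. Alternatives were DESeq2 1.42.0, other covariates, scalings, filters and cut-offs, and omission of libraries. Named genes were the edited gene, the 10 enzymes, every tested gene of the PRPP, AMP and GMP, and one-carbon lists, up to 4 called genes with the largest change in each other list, the partners in the ratios and the 5 nearest patterns to the enzyme with the largest change. Others are said to be named after their values were seen, apart from cell type markers, and some genes that meet the rule are not reported here. The enzymes and gene lists were chosen with earlier results of these data known. Replicates of a genotype differed by a chi-square of at least 10.2 per gene, which leaves no repeated library. Counts carry no molecular identifiers, so low counts limit precision through counting error and the spread between libraries sets the rest.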

Additional observations from a re-analysis of the deposited data

Results flagged for a closer look

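Among 140 sets of 4 libraries checked, 5 held a library far from the other 3 by Dixon's criterion for 4 values, the gap to the nearest value as a share of the range, whereas chance alone would give about 7. For Pfas, WT 3 lay at 15.4 CPM and the other WT libraries at 18.8 to 19.2 CPM, a gap of 0.91 of the range. For Gda, WT 4 lay at 122 CPM and the others at 14.7 to 27.1 CPM (0.884), in the library with the highest red cell and lymphocyte markers, whose part in this value was not tested. For Dguok, WT 4 lay at 19.3 CPM and the others at 23.0 to 23.3 CPM (0.918). For Dctd, TAZG197V 1 lay at 5.34 CPM and the others at 3.89 to 4.05 CPM (0.889). For Slc1a5, TAZG197V 1 lay at 13.9 CPM and the others at 17.3 to 17.5 CPM (0.946).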

How the results depend on the processing

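Of 1361 values recomputed under an alternative, 1254 were scored as unchanged. Of the rest, 84 lost a call, 5 gained one, 13 gene values changed sign and 5 counts moved beyond 1.5 times. Unchanged meant the same direction and side of the threshold for a gene, and a count within 1.5 times. Ratios with libraries omitted were scored unchanged if they moved by less than the larger genotype SD, whatever their sign. With 1 library omitted, the difference ran from -0.16 to 0.014 for Ppat to Paics. It ran from -0.075 to 0.14 for Impdh2 to Impdh1 and from -0.195 to 0.021 for Prps1 to Prps2. The cause of these changes was not tested. A fold change beyond 1.5 left 1843 of all tested genes, 1 of the 10 enzymes, and 19 higher and 3 lower genes of the surrounding lists, through its own construction. With 1 library omitted at a time, the surrounding lists gave 10 to 15 lower genes and the 10 enzymes 0 to 1 lower. The genes that changed sign were not called in any of these fits except Cad: with library totals, Mthfd2l (0.018), Mthfs (0.036) and Rrm2b (0.017), and without both number 4 libraries, Adss (-0.041) and Aldh1l1 (0.027). With 1 library omitted, the log2 fold change ran from -0.0041 to 0.22 for Cad, from -0.022 to 0.099 for Prps1l3, from -0.033 to 0.13 for Adss, from -0.28 to 0.25 for Aldh1l1 and from -0.34 to 0.12 for Mthfs. Mthfs did not pass the low-count filter without WT 2, so that fit gave no value for it.

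Same-numbered libraries of both genotypes correlated at 0.323, 0.0666, 0.28 and 0.418 in their deviations from the genotype means, and differently numbered ones at -0.46 to 0.336. Deviations from a mean cancel within a genotype, so these correlations depend on each other and do not settle whether the numbers pair the libraries. The reported fit did not pair them. With the replicate number as a block, 6 of the 10 enzymes and 2438 of 15084 tested genes were called higher, and 0 of the 10 calls changed. In that fit the surrounding lists gave 31 higher and 11 lower genes. The calls of Adssl1 (adjusted p = 0.0973, edgeR), Rpia (0.081), Ak4 (0.0764) and Gda (log2 -1.03, 0.054) were lost. In 3 of 4 cases a WT library correlated best with its own number. For the ratios, the paired test could not go below p = 0.125 (exact sign-flip permutation), which Ctps to Ctps2 reached. Among the 10 enzymes, Impdh2 drew the fewest counts.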
